A study of Homo sapiens with 2 samples.

Results

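The long arm of human chromosome 8 (8q) was followed gene by gene through single cells of the MDA-MB-453 line. The 56 member genes were given by name as rows of the count matrix, which holds 16251 genes, and all of them lie on 8q in the GENCODE v44 annotation of GRCh38, between RB1CC1 (chr8:52622458-52745843) and VPS28 (chr8:144423601-144428563). The list was chosen by expression in these same cells, by deposited cluster within each library, without the values that set it being given, and it serves to ask whether the arm shifts as a whole, as in a subclone with another copy number. Differences of the members between clusters or other groups of these cells are therefore given as descriptions. DNA was not measured here, so the number of copies of the arm is not known from these files.

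MDA-MB-453 is an established human breast cancer line, labelled triple-negative and wild type, and it was grown attached in medium with serum. Cells of the cytokine library had been kept with both IL1β and TNFα (10 ng/ml, 24 hours), and those of the vehicle library with water for as long. Each library was made by droplet single-cell sequencing of RNA 3′ ends, in which each molecule carries its own tag (a unique molecular identifier, UMI). There was 1 library per condition, so no test was possible, and the intervals given hold counting error alone and say nothing of how cultures vary.

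Cancer cells often carry extra or missing chromosome arms, and clones that differ in such changes can live side by side in a culture. When an arm is present in more copies, most of its expressed genes tend to give more RNA, each by a similar factor, whatever their function. Gain of 8q is a frequent change in breast cancers, and the arm holds MYC, a transcription factor that drives growth, as well as genes for translation factors, cohesin and protein degradation that share little but their position.

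The cytokine library held 3163 cells and 69592446 UMIs with a median of 21508 UMIs per cell, and the vehicle library held 2822 cells and 58587996 UMIs with a median of 20249. Only 8 cell barcodes occurred in both. Of 11 luminal epithelial markers, 11 had at least 5 counts per 1000000 UMIs (CPM) in the cytokine library and 10 in the vehicle library. Of 11 markers of blood, stromal, endothelial and basal cells 5 were in the matrix, and 1 of them reached that level in each library (COL1A1, at 20.1 CPM in the cytokine library and 20.9 CPM in the vehicle library). The members took 0.493% of all UMIs in the cytokine library (95% interval 0.492 to 0.495) and 0.466% in the vehicle library (0.464 to 0.467). A gene counted as measured when either side of a comparison had at least 5 CPM, which 52 of the 56 members did between the libraries. The other 4 were E2F5, a cell cycle transcription factor, with 2.54 CPM in the cytokine library and 3.29 CPM in the vehicle library, IMPA1, an inositol phosphatase, with 4.35 and 3.57 CPM in the same order, and FABP5 and ZBTB10, each under 0.5 CPM in both.

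Cells of both libraries fell into 2 groups by how much of their RNA came from 8q. To find those groups without using the members, cells were scored by the share of their UMIs in 147 other measured 8q genes, with ribosomal protein genes left out. The density of that share had 2 peaks in each library, at 0.958% and 0.656% in the cytokine library and at 1.1% and 0.735% in the vehicle library, which are 1.46 and 1.5 times apart. Between the peaks the density dropped to 0.526 of the lower peak in the cytokine library and to 0.337 of it in the vehicle library. Cells were split at that lowest point, which was chosen after the data had been examined, into 8q-high and 8q-low cells. The split lay at 0.785% in the cytokine library and at 0.912% in the vehicle library, so the groups are relative to their own library. The 8q-high group held 1709 of 3163 cytokine-treated cells (54.0%, exact 95% interval 52.3 to 55.8) and 1307 of 2822 vehicle-treated cells (46.3%, 44.5 to 48.2). Since the split cuts a continuous score, it has a blurred edge, and 524 cytokine-treated and 373 vehicle-treated cells lay within 10% of it.

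The members had no part in the split, but their list was chosen by expression in these same cells, by cluster. Their shares in both cell groups are therefore a description and not independent support for the split. In the cytokine library the members took a median of 0.574% of the UMIs of 8q-high cells (10th to 90th percentile 0.476 to 0.673) and 0.403% of those of 8q-low cells (0.328 to 0.477). In the vehicle library those values were 0.559% in 8q-high cells (0.476 to 0.658) and 0.381% in 8q-low cells (0.315 to 0.459). The 90th percentile of 8q-low cells lay close to the 10th percentile of 8q-high cells, just above it in the cytokine library and below it in the vehicle library. The members' own share also had 2 peaks, and its lowest point put 88.1% of 8q-high and 91.1% of 8q-low cells on their own side in the cytokine library and 91.4% and 91.6% of them in the vehicle library. Across cells the members' share and that of the other 8q genes had a Pearson r of 0.76 (Spearman rho 0.76) over the 3163 cytokine-treated cells and of 0.79 (rho 0.76) over the 2822 vehicle-treated cells, both shares being taken over the same cell totals.

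**Figure D1:**
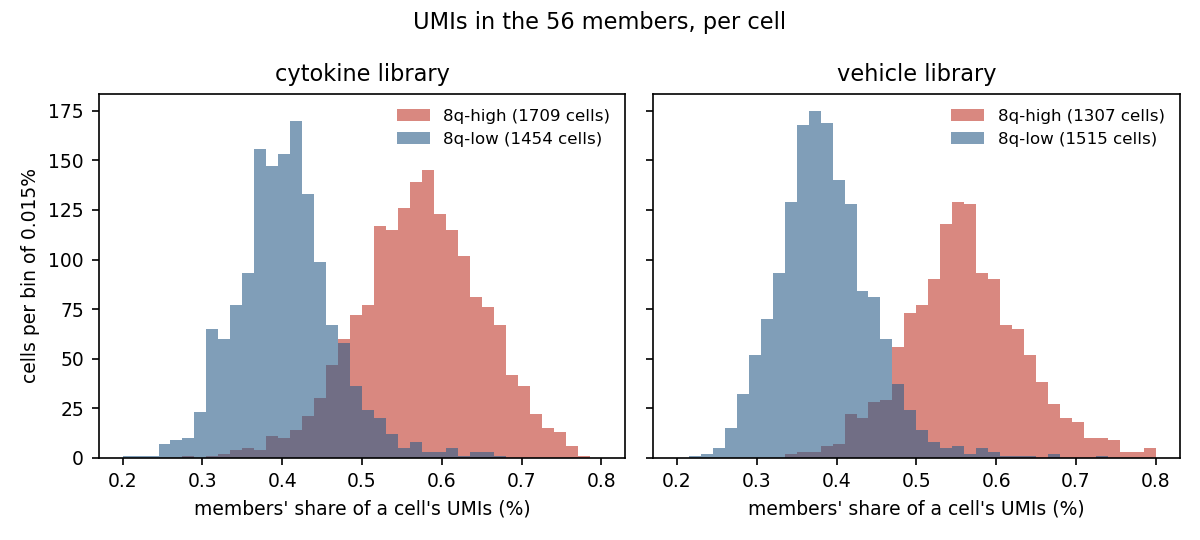
Share of each cell's UMIs in the 56 members (x axis, percent) against the number of cells per bin (y axis), for 8q-high cells (red) and 8q-low cells (blue) of the cytokine library (left) and the vehicle library (right). The groups were set by other genes of the arm, and their members' shares peak apart, with medians of 0.574% and 0.403% in the cytokine library and 0.559% and 0.381% in the vehicle library.

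The cell groups differed little in depth and cell cycle. In the cytokine library 8q-high cells had a median of 20688 UMIs and 8q-low cells 22615, and in the vehicle library they had 19965 and 20411. Cells called G1 made up 87.3% of 8q-high and 89.9% of 8q-low cells in the cytokine library, and 34.6% and 38.3% of them in the vehicle library. Mitochondrial genes took a median of 6.37% of UMIs in 8q-high and 6.66% in 8q-low cells of the cytokine library, and 6.20% and 6.37% in the vehicle library. Ribosomal protein genes off 8q took 26.2% in 8q-high and 25.5% in 8q-low cells of the cytokine library, and 28.9% and 27.7% in the vehicle library. In G1 cells alone the members' median log2 ratio of 8q-high over 8q-low cells was 0.50 in the cytokine library and 0.56 in the vehicle library, and in cells under 10% mitochondrial UMIs 0.50 and 0.53. The part of depth was not tested. The same search for peaks was run on each of 41 arms with at least 20 measured genes. In the cytokine library 8q alone, members included, had 2 peaks. In the vehicle library 15q had them as well, but its peaks were 1.03 times apart with hardly a dip between them, against 1.49 times for 8q.

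The measured members were higher in 8q-high cells with few exceptions and by a like amount. Of 52 measured members, 52 had a log2 ratio above 0 in the cytokine library and 50 in the vehicle library, with medians of 0.51 (quartiles 0.40 and 0.60) and 0.53 (0.44 and 0.61), about 1.42-fold and 1.45-fold. The median over all measured genes off the arm was 0.00 in both libraries. Genes were called when the log2 ratio was at least 0.32 in size with the exact 95% interval on the same side of 0. So called, 48 members were higher in each library, while 8.5% of all measured genes were in the cytokine library and 6.22% in the vehicle library. No member was called lower, while 5.25% of all measured genes were in the cytokine library and 4.5% in the vehicle library. These shares of all genes include the 8q genes that set the split.

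Genes of every role took part. Among 14 genes for RNA processing and translation, 13 were called higher in the cytokine library and 14 in the vehicle library. PABPC1, which binds poly(A) tails, had 463.2 CPM in 8q-high and 291.4 CPM in 8q-low cells of the cytokine library and 648.3 and 409.7 CPM in those of the vehicle library (log2 ratios 0.67 and 0.66). EIF3E and EIF3H, subunits of the translation initiation factor eIF3, had log2 ratios of 0.57 and 0.50 in the cytokine library and of 0.59 and 0.47 in the vehicle library. BOP1, which works in ribosome assembly, stood among the 5 highest members in both libraries, with 26.5 CPM in 8q-high and 15.5 CPM in 8q-low cells of the cytokine library and 44.2 and 26.6 CPM in those of the vehicle library.

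Proteins of degradation and the secretory route followed the same pattern, with 7 of 7 measured genes called higher in both libraries. VPS28, an ESCRT-I subunit that sorts cargo into endosomes, had 290.1 CPM in 8q-high and 199.9 CPM in 8q-low cells of the cytokine library, and 168.8 and 131.4 CPM in those of the vehicle library. SHARPIN, part of the linear ubiquitin ligase LUBAC that acts in TNF signalling, had log2 ratios of 0.40 and 0.44 in the cytokine and vehicle libraries. OTUD6B, a deubiquitinase, had the highest ratio of the vehicle library at 0.90 (95% interval 0.62 to 1.19), from only 9.72 and 5.20 CPM.

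All 4 genome maintenance genes were called higher in both libraries. RAD21, the cohesin subunit that closes the ring around DNA, had 44.7 CPM in 8q-high and 26.9 CPM in 8q-low cells of the cytokine library and 141.9 and 85.6 CPM in those of the vehicle library, a log2 ratio of 0.73 in each. The ratio was the same although the gene's level differed about 3-fold between the libraries. NBN of the MRN complex, which senses DNA breaks, had log2 ratios of 0.53 and 0.62, and TERF1, which binds telomere repeats, 0.38 and 0.67, in the cytokine and vehicle libraries.

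Of 13 genes for signalling, adhesion and trafficking, 12 were called higher in the cytokine library and 11 in the vehicle library. MTDH, a membrane protein studied in breast cancer spread, had 446.4 CPM in 8q-high and 315.0 CPM in 8q-low cells of the cytokine library and 544.6 and 355.2 CPM in those of the vehicle library. ASPH, an ER hydroxylase, had 612.6 and 410.8 CPM in the cytokine library and 394.8 and 272.6 CPM in the vehicle library, again 8q-high before 8q-low. YWHAZ, a 14-3-3 adaptor protein, and PTK2, the focal adhesion kinase FAK, had log2 ratios of 0.48 and 0.69 in the cytokine library and of 0.56 and 0.62 in the vehicle library.

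Of 8 metabolic and mitochondrial genes, 7 were called higher in the cytokine library and 8 in the vehicle library. NAPRT, which starts NAD synthesis from nicotinic acid, led the cytokine library with 41.6 CPM in 8q-high and 23.0 CPM in 8q-low cells (log2 ratio 0.85, 95% interval 0.73 to 0.98), and had 43 and 26.1 CPM in the vehicle library (0.72, 0.59 to 0.85). DECR1, an enzyme of fatty acid oxidation, had log2 ratios of 0.73 in the cytokine library and 0.47 in the vehicle library. The 4 members under 5 CPM are not in these counts. Of them E2F5 had 3.34 CPM in 8q-high and 1.68 CPM in 8q-low cells of the cytokine library and 4.21 and 2.52 CPM in the vehicle library, and IMPA1 had 4.95 and 3.71 CPM and then 4.47 and 2.80 CPM. The intervals of the log2 ratios of ZBTB10 and FABP5 spanned 0 in both libraries.

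Of 6 measured transcription regulators, 5 were called higher in the cytokine library and 4 in the vehicle library. MYC (chr8:127735434-127742951) had 59.6 CPM in 8q-high and 36.2 CPM in 8q-low cells of the cytokine library (log2 ratio 0.72, 0.62 to 0.82) but 70.2 and 58.8 CPM in the vehicle library (0.26, 0.16 to 0.35). CHD7, a chromatin remodeller, had 6.77 and 6.17 CPM in the cytokine library (0.13, -0.14 to 0.41) and 9.39 and 9.42 CPM in the vehicle library (-0.01, -0.25 to 0.24). HSF1, the regulator of the heat shock response, had 0.36 and 0.47 and TRPS1, a GATA-type repressor of luminal cells, 0.37 and 0.35 in the cytokine and vehicle libraries.

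SDCBP (chr8:58552924-58582859) was, like CHD7, called higher in neither library. It encodes syntenin-1, an adaptor in vesicle release. It had 152.8 CPM in 8q-high and 146.3 CPM in 8q-low cells of the cytokine library (log2 ratio 0.06, 0.01 to 0.12) and 13.3 and 16.5 CPM in the vehicle library (-0.31, -0.51 to -0.11). SDCBP and CHD7 follow each other in the order of the members along the arm, while ASPH, next in order, had 0.58 and 0.53 in the cytokine and vehicle libraries. For 10 of the 52 measured members the exact intervals of both libraries did not overlap, a larger share than the 8.8% of all 8351 genes measured in both. The width of an interval depends on the counts, and the members were not matched by level to those genes. SDCBP, DECR1, MYC and VPS28 had the higher ratio in the cytokine library, and TRAM1, TERF1, TMEM70, TPD52, MTDH and GRINA in the vehicle library. Over the 52 members the ratios of both libraries had a Pearson r of 0.61 and a Spearman rho of 0.46, as a description across genes that are not independent.

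**Figure D2:**
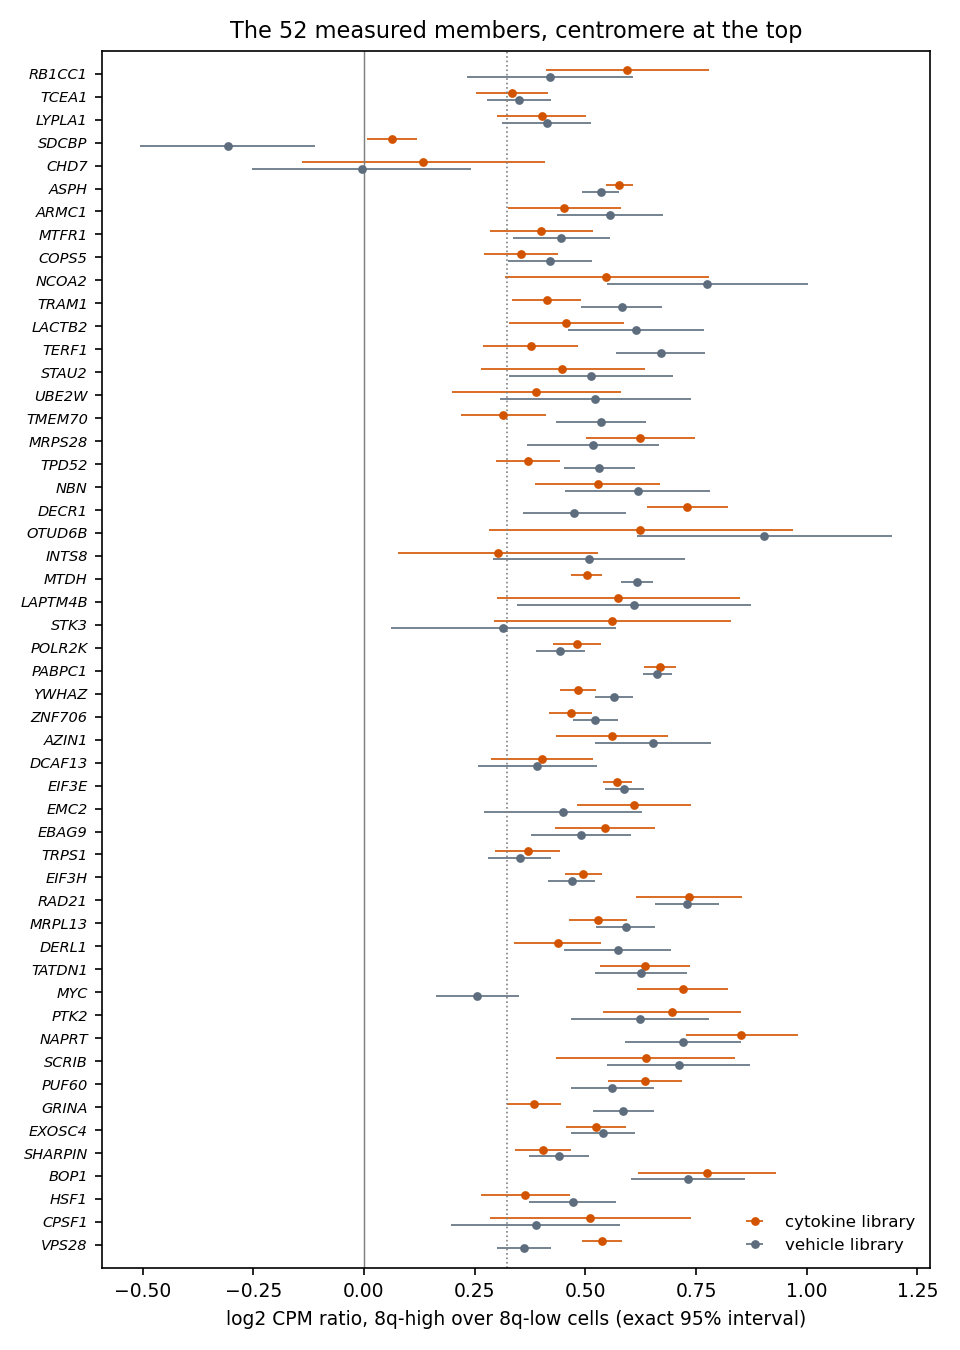
Log2 ratio of CPM in 8q-high over 8q-low cells (x axis) for the 52 measured members in order from the centromere (y axis, top to bottom) in the cytokine library (orange) and the vehicle library (grey), with exact 95% intervals and a dotted line at the size of 0.32 needed for a call. The members form a band near the medians of 0.51 and 0.53, and SDCBP and CHD7 sit near or under 0.

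The band ran along the whole arm. The 16 measured members from RB1CC1 to TMEM70 had median log2 ratios of 0.40 in the cytokine library and 0.52 in the vehicle library. From MRPS28 to DCAF13 the 15 measured members had 0.53 in both, the 10 from EIF3E to MYC had 0.56 and 0.53, and the 11 from PTK2 to VPS28 had 0.54 and 0.56. No stretch of the members therefore lacked the difference. The 147 other measured 8q genes in the cytokine library and 150 in the vehicle library had medians of 0.56 and 0.57, which is a description, because most of them set the split.

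The short arm, 8p, was not used in the split, and it differed along its length. The 14 measured 8p genes nearest the centromere, from GOLGA7 to HGSNAT, all had a ratio above 0 in both libraries, with medians of 0.35 in the cytokine library and 0.34 in the vehicle library. The next window of 10 Mb, from SARAF to ADAM9, had medians of 0.10 and 0.26 over 21 genes. The 3 windows nearer the end of the arm had medians between -0.07 and 0.08 in both libraries, over 9 to 25 genes each. The higher level in 8q-high cells thus extended past the centromere into the near part of 8p and was not seen in the medians of the far part.

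**Figure D3:**
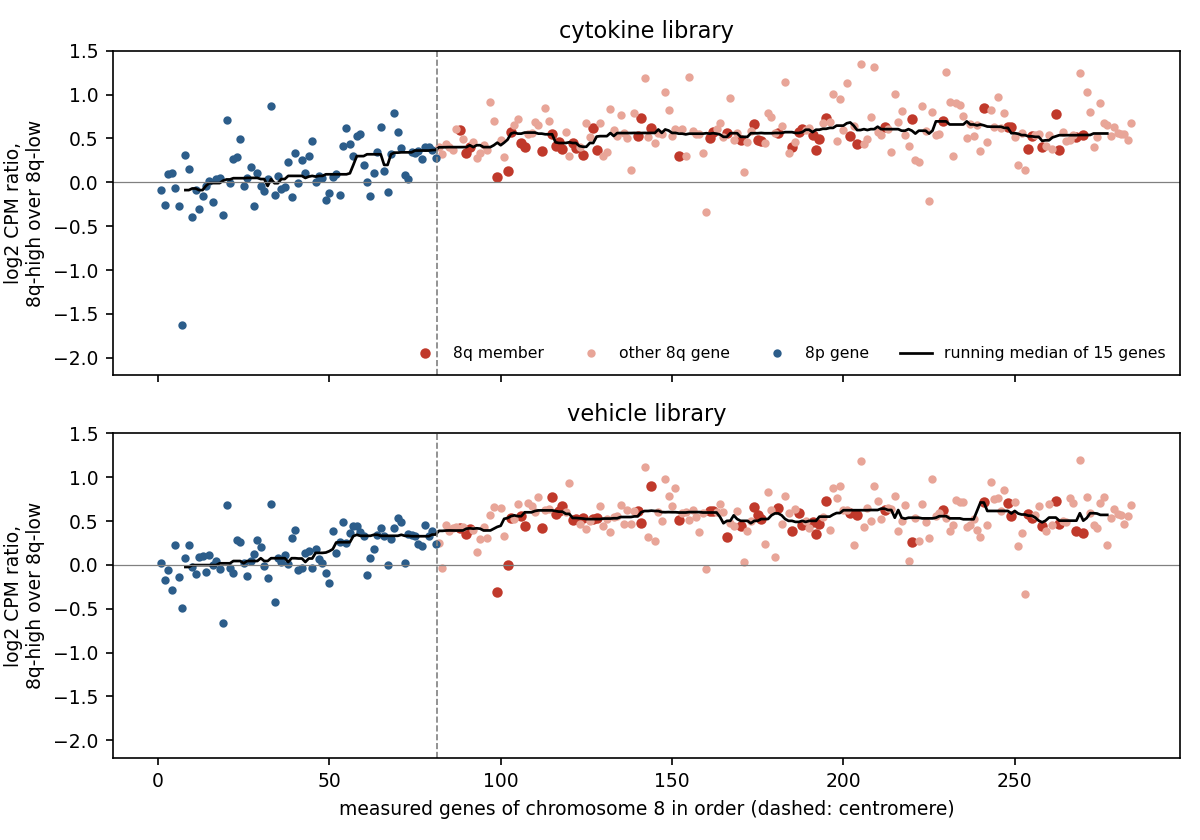
Log2 ratio of CPM in 8q-high over 8q-low cells (y axis) for the measured genes of chromosome 8 in their order from the end of 8p to the end of 8q (x axis) in the cytokine library (above) and the vehicle library (below), with members in red, other 8q genes in light red, 8p genes in blue and a running median of 15 genes in black. The running median lies near 0 over the far part of 8p, near 0.35 next to the centromere (dashed line) and above 0.4 over most of 8q.

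Genes that work with the members but lie off 8q did not share the difference. Across 13 protein complexes to which 14 measured members belong, the 83 measured partner genes off 8q had a median log2 ratio of -0.01 in the cytokine library and -0.03 in the vehicle library, against 0.52 in each for the 14 members. Of those 83 partners, 3 were called higher and 2 lower in the cytokine library, and 2 higher and 1 lower in the vehicle library. EIF3E and EIF3H exceeded each of 10 measured eIF3 partners in both libraries, and RAD21 each of 8 cohesin partners. INTS8 of the Integrator complex exceeded 10 of 12 partners in the cytokine library and 12 of 12 in the vehicle library. The 2 partners of BOP1 were both above 0 in both libraries. Their medians were 0.23 in the cytokine library and 0.24 in the vehicle library, against 0.77 and 0.73 for BOP1. The same split between positions appeared in ribosomal protein genes, none of which was used for the cell groups. The 4 on 8q (RPS20, RPL7, RPL30 and RPL8) had log2 ratios between 0.42 and 0.61 in both libraries, while the 78 on other arms had medians of 0.04 in the cytokine library and 0.05 in the vehicle library.

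The deposited data place each cell in 1 of 6 clusters, numbered 0 to 5, which the authors made from these cells' own expression. A cluster set against the other cells of its library is therefore a description. In cluster 0 the members were higher than in the other cells. In cluster 1 they were lower. Cluster 0 had a median log2 ratio of 0.30 in the cytokine library (51 of 52 measured members above 0) and of 0.35 in the vehicle library (46 of 52), and cluster 1 had -0.32 (0 of 51 above 0) and -0.35 (4 of 52). In cluster 0, 24 members were called higher in the cytokine library and 26 in the vehicle library, where 5.64% and 8.09% of all measured genes were, and 0 were called lower in each (9.54% and 10.3% of all genes). In cluster 1, 26 and 28 members were called lower, where 19.1% and 9.98% of all measured genes were, and 0 and 1 higher (7.14% and 7.29%).

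In clusters 3 and 4 the members differed in the same sense by less. The other measured 8q genes did not differ by less there. In the cytokine and vehicle libraries their medians were 0.28 and 0.32 in cluster 4, against 0.25 and 0.28 in cluster 0. They were -0.35 and -0.36 in cluster 3, against -0.34 and -0.32 in cluster 1. The values that follow are those of the members. Cluster 3 had medians of -0.21 and -0.24 in the cytokine and vehicle libraries, with 14 and 18 members called lower (13.9% and 16% of all measured genes) and 2 and 5 higher (16.1% and 13.1%). Cluster 4 had 0.11 and 0.20, with 12 and 15 members called higher (9.06% and 8.18%) and 7 and 1 lower (18.6% and 11.6%). Cluster 5 had 0.15 and 0.12, with 10 and 13 members called higher (14.9% and 10.6%) and 1 and 2 lower (7.43% and 15.6%). The medians of all measured genes in cluster 5 were 0.09 and -0.01. In cluster 2, where 89.8% of cytokine-treated and 73% of vehicle-treated cells were called S phase, the medians were 0.08 and -0.07. Those of all measured genes in cluster 2 were 0.07 and 0.00. There 1 and 2 members were called higher (23.2% and 14.4%) and 9 and 10 lower (11.1% and 10.1%). Among the 41 arms 8q had the highest median in clusters 0 and 4 and the lowest in clusters 1 and 3, in both libraries. The next highest arm of cluster 0 was 8p, at 0.06 in the cytokine library and 0.04 in the vehicle library, against 0.26 and 0.30 for 8q.

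**Figure D4:**
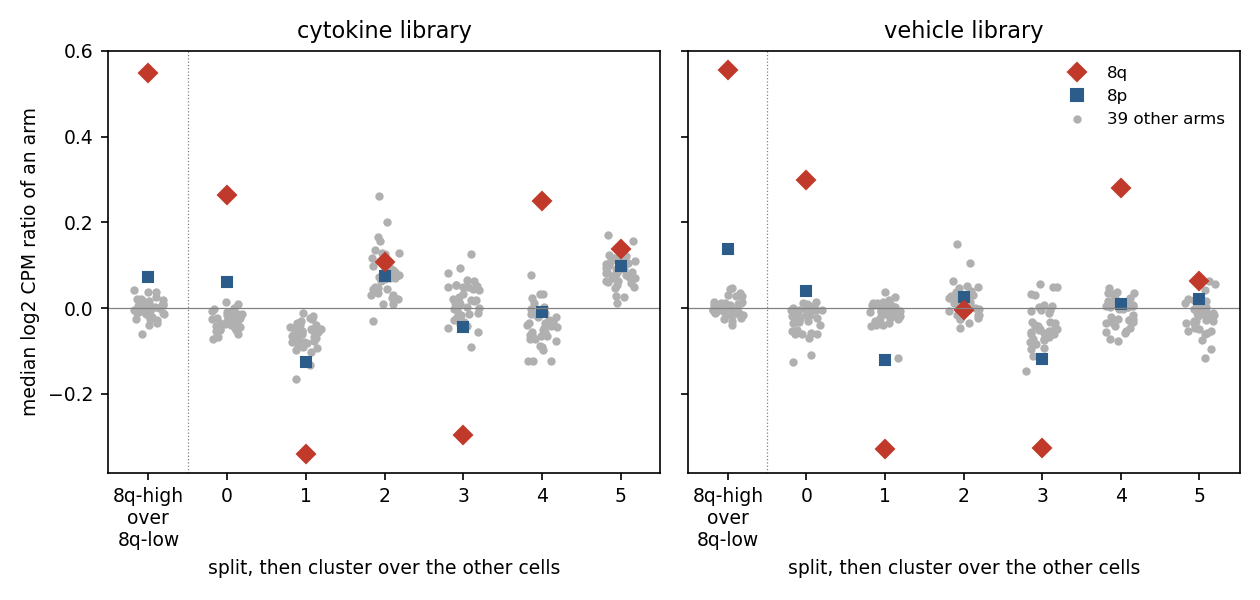
Median log2 ratio of CPM over the measured genes of each chromosome arm (y axis) for 8q-high over 8q-low cells and for each deposited cluster over the other cells (x axis) in the cytokine library (left) and the vehicle library (right). The 8q arm (red) lies apart from the 39 other arms (grey) at the split, where its own genes chose the cells, and also in clusters 0, 1, 3 and 4, and 8p (blue) lies next to or among the other arms.

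The members differed among themselves more between clusters than between the 8q-high and 8q-low cells, with quartiles of 0.19 and 0.43 for cluster 0 of the cytokine library and of 0.10 and 0.58 for that of the vehicle library. In cluster 0 DECR1 and NAPRT were among the 5 highest in both libraries, with log2 ratios of 0.77 and 0.63 in the cytokine library and of 0.83 and 0.79 in the vehicle library, and RAD21 was the lowest, at -0.09 and -0.23. In cluster 1 PUF60, a splicing factor, had 38.4 CPM in the cluster and 80.2 CPM in the other cells of the cytokine library, and LACTB2, a mitochondrial RNA nuclease, had 13.9 and 26.4 CPM in the vehicle library. In the S phase cluster 2 RAD21 was the highest member in both libraries, with 75.3 CPM in the cluster and 32.2 CPM in the other cells of the cytokine library and 139.9 and 99.8 CPM in the vehicle library. Clusters 3 and 4 divided the members by gene. EMC2 of the ER membrane complex and DCAF13, a factor of ribosome assembly, were above 0 in cluster 3 of both libraries (0.45 and 0.44 in the cytokine library, 0.37 and 0.59 in the vehicle library) against the direction of the arm, and EMC2 was below 0 in cluster 4 (-0.64 and -0.29). NCOA2, a nuclear receptor coactivator, did the reverse, with -0.78 and -0.69 in cluster 3 and 0.72 and 0.54 in cluster 4.

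The clusters held very unequal shares of 8q-high cells, with clusters 0 and 4 highest and clusters 1 and 3 lowest in each library. Of cluster 4, 90.6% (95% interval 86.9 to 93.5) were 8q-high in the cytokine library and 88.6% (85.3 to 91.4) in the vehicle library, and of cluster 0, 87.3% (85.2 to 89.2) and 94.3%. Of cluster 1, 16.3% (13.7 to 19.2) and 5.94% (4.17 to 8.17) were 8q-high, and of cluster 3, 12.8% (10.2 to 15.7) and 5.63% (3.48 to 8.57). Clusters 2 and 5 were mixed, with 58.5% and 67.9% in the cytokine library and 47.6% and 58.0% in the vehicle library. The deposited clusters and the 8q groups are drawn from the same cells and counts, so this overlap is a description of both and not a test.

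Inside single clusters the difference between 8q-high and 8q-low cells remained. Over the 6 clusters of each library the members' median log2 ratio of 8q-high over 8q-low cells ran between 0.34 and 0.50 in the cytokine library and between 0.28 and 0.52 in the vehicle library. The lowest of these, in cluster 4 of the vehicle library, compared 397 with 51 cells, and the smallest group, in cluster 0 of that library, had 16 8q-low cells. In the mixed cluster 2 of the vehicle library, with 352 8q-high and 388 8q-low cells, 51 of 52 members were above 0, with a median of 0.52. Conversely, when clusters were compared within 8q-high or within 8q-low cells alone, where at least 50 cells of the cluster were left, the members' medians lay between -0.17 and 0.17 in all 19 comparisons, and 16 of them were nearer 0 than the same cluster's value over all cells. Cluster 0 had 0.08 within 8q-high and 0.01 within 8q-low cells of the cytokine library and to 0.05 within 8q-high cells of the vehicle library. Cluster 3 had 0.08 and -0.01 within 8q-low cells of the cytokine and vehicle libraries, and cluster 1 had -0.17 and -0.07. All of these cells had first been chosen by their 8q share, so medians nearer 0 follow in part from the split.

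**Figure D5:**
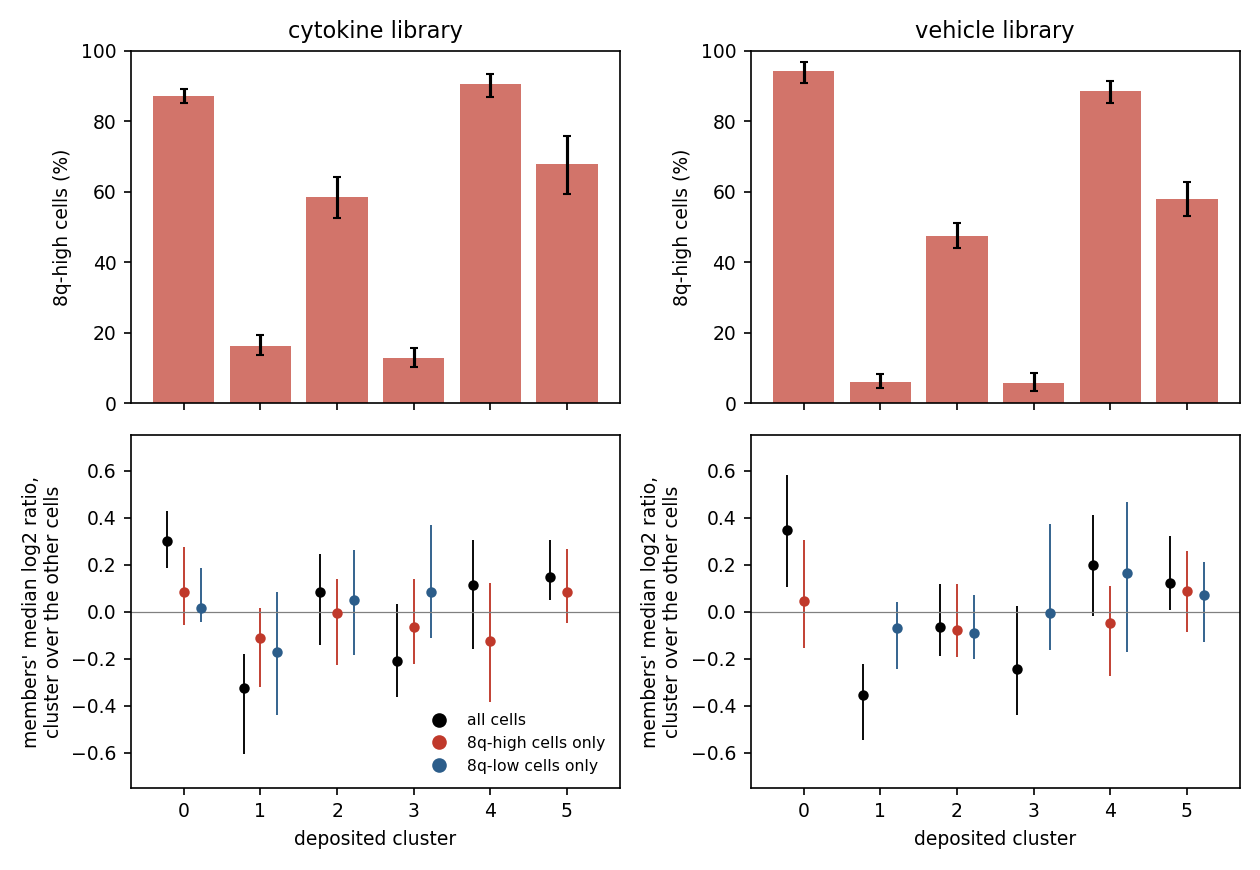
Above, the percent of 8q-high cells in each deposited cluster (bars, with exact 95% binomial intervals), and below, the members' median log2 ratio of a cluster over the other cells (points, with the quartiles over members as bars) for all cells (black), 8q-high cells only (red) and 8q-low cells only (blue), in the cytokine library (left) and the vehicle library (right). Clusters 0 and 4 are mostly 8q-high and clusters 1 and 3 mostly 8q-low, and points within 1 cell group, drawn where it held at least 50 cells of the cluster, lie between -0.17 and 0.17.

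The spread of the members' summed counts between cells was larger than counting alone gives. After each cell was thinned to 15000 UMIs, the variance of that sum over cells was 3.99 times the binomial variance in the cytokine library and 4.19 times in the vehicle library. Within 8q-high cells the ratio was 1.87 and 1.70, and within 8q-low cells 1.70 and 1.69, in the cytokine and vehicle libraries. The split was made on a share that rises with the members' share, so part of this fall follows from the split. The mixed clusters 2 and 5 stayed at 3.96 and 3.94 in the cytokine library and 3.78 and 4.19 in the vehicle library. A large ratio alone is not particular to the members, since 21 of 40 other arms had a larger one in the cytokine library and 13 of 40 in the vehicle library. Those arms were each taken over all measured genes without ribosomal protein genes, while the members are only a part of 8q. Taken as the other arms were, over 199 genes, 8q had 8.89 in the cytokine library and 10.3 in the vehicle library. Of the 40 other arms, 5 and 1 had a larger ratio than that.

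Pairs of members also varied together from cell to cell, weakly, as sparse counts of single genes allow. Over 820 pairs of members at 20 CPM or more in the cytokine library the mean Pearson r was 0.044, with 90% of pairs above 0, and over 780 pairs in the vehicle library it was 0.045, with 90.4% above 0. Members paired with other 8q genes had a mean r of 0.038 in the cytokine library and 0.040 in the vehicle library. For members paired with genes of other arms it was 0.0056 in the cytokine library and 0.0027 in the vehicle library. In the 39 other arms that could be so measured, the mean r within an arm was at most 0.026 (7p, cytokine library) and 0.018 (16q, vehicle library). The members were chosen by expression in these cells and the genes of those arms were not, so these values are not like for like. Within 8q-high cells the members' mean r was 0.017 and 0.0096, and within 8q-low cells 0.011 and 0.010, in the cytokine and vehicle libraries. Part of this fall, too, follows from a split on a share that rises with the members' share.

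Between the libraries, by contrast, the members did not move as a block. Of 52 measured members, 1 was at least 2-fold higher in the cytokine library and 1 at least 2-fold lower, where 4.29% of all measured genes were called higher and 7.48% lower. Their median log2 ratio was -0.12 and that of all measured genes -0.20, with scaling by TMM or DESeq2 size factors moving every gene up by 0.18 or 0.19 and the members' median to 0.06 or 0.08. Relative to all genes the members thus stood 0.08 higher under any of these scalings, and 8q ranked 20th of 41 arms. At a log2 ratio of 0.32, 9 members were called higher and 14 lower, where 16.2% and 38.6% of all measured genes were.

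The gene that rose was SDCBP, with 149.7 CPM in the cytokine library (95% interval 146.8 to 152.6) and 15.1 CPM in the vehicle library (14.1 to 16.1), a log2 ratio of 3.31 (3.21 to 3.41) or 9.94-fold. The log2 ratio was somewhat larger in 8q-high cells (3.52, 3.36 to 3.68) than in 8q-low cells (3.15, 3.02 to 3.28). In cells called G1 it was 3.13. The gene that fell was RAD21 (chr8:116845934-116874776), with 36.1 CPM in the cytokine library and 111.4 CPM in the vehicle library (log2 ratio -1.62, -1.69 to -1.56). RAD21 was no longer 2-fold lower when only cells called G1 were taken, with 31.0 CPM in the cytokine library and 61.3 CPM in the vehicle library (-0.98, -1.09 to -0.88). G1 cells were 2799 of 3163 in the cytokine library and 1032 of 2822 in the vehicle library. Among G1 cells alone the members' median log2 ratio was -0.05 (-0.16 over all measured genes), and 4 of the 52 members, TMEM70, YWHAZ, PTK2 and SHARPIN, changed sign. The 8 measured cohesin partners of RAD21 had a median of -0.75 over all cells.

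After SDCBP the highest ratios were those of EMC2 (0.76), VPS28 (0.73), ASPH (0.65), EIF3E (0.62), EIF3H (0.59), DECR1 (0.56) and DERL1 (0.38), which removes misfolded proteins from the ER. In G1 cells alone these 7 ratios lay between 0.38 (EIF3E) and 0.69 (EMC2), and LACTB2 had 0.66, against 0.28 over all cells. The 10 measured eIF3 partners had a median of 0.31, while the 9 partners of EMC2 had -0.17 and the 6 of VPS28 -0.15. After RAD21 the lowest ratios were those of SCRIB (-0.84), a cell polarity scaffold, OTUD6B (-0.72), BOP1 (-0.71), CPSF1 (-0.68), which acts in 3′ end cleavage, TCEA1 (-0.55), an elongation factor, CHD7 (-0.54) and PABPC1 (-0.45), and in G1 cells alone these 7 lay between -0.86 (OTUD6B) and -0.45 (TCEA1). Of the 6 measured transcription regulators 0 had a ratio above 0, where 33.6% of all measured genes did. Their median was -0.29, against -0.20 over all measured genes. TMM and DESeq2 scaling place ZNF706 above 0. MYC had 48.3 CPM in the cytokine library and 64.0 CPM in the vehicle library (-0.40, and -0.73 in G1 cells).

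The other members with many UMIs changed little between the libraries. MTDH had 383.4 CPM in the cytokine library and 442.0 CPM in the vehicle library, YWHAZ 303.6 and 296.4 CPM, and ZNF706, a small zinc finger protein, 198.0 and 219.4 CPM. POLR2K, a subunit shared by the nuclear RNA polymerases, had 166.6 CPM in the cytokine library and 180.6 CPM in the vehicle library, and MRPL13 of the mitochondrial ribosome had 116.3 and 127.5 CPM. SHARPIN had 120.7 and 123.7 CPM and GRINA, a membrane protein of the ER and Golgi, 125.4 and 118.2 CPM. Their log2 ratios, between -0.21 and 0.09, are about as small as the shift between scalings, and their signs are not read.

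Within each 8q group, cut at each library's own split, the comparison of the libraries was much as it was over all cells. Within 8q-high cells the members' median log2 ratio of the cytokine over the vehicle library was -0.16, with 1 member at least 2-fold higher and 1 lower (4.43% and 7.74% of all measured genes), and within 8q-low cells it was -0.16, again with 1 and 1 (4.29% and 7.70%). The members took 0.575% of UMIs in 8q-high cells of the cytokine library and 0.560% in those of the vehicle library, and 0.405% and 0.385% in the 8q-low cells.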

How the data were processed

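The 2 libraries of MDA-MB-453 cells were grouped by their labels. The values deposited are raw UMI counts, for which the authors used Cell Ranger (3.1.0, genome GRCh38). With Seurat 4.0.4 the authors removed cells with 50000 or more UMIs, 3000 or fewer or 5000 or more genes, or 15% or more mitochondrial UMIs, and genes seen in fewer than 10 cells. The authors also deposited per-cell totals, the percent of mitochondrial UMIs, phase calls and cluster numbers. The method of clustering is not given in the sources used here, and no doublets were removed here.

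UMIs were summed over the cells of a library, cluster or cell group and divided by their total to give CPM. A log2 ratio of CPM has an exact 95% conditional binomial interval, a CPM an exact Poisson interval and a share of cells an exact Clopper-Pearson interval. Genes at 5 CPM or more on either side counted as measured. They were called at 2-fold between libraries, and at a log2 ratio of 0.32 between clusters or cell groups, with the interval on the same side of 0. A gene at 0 was set to 3 UMIs in ratios. UMI counts are not divided by gene length, and no order of levels between genes was drawn from them. Arms came from GENCODE v44 and arms with at least 20 measured genes were used, while 411 measured genes had no match by symbol. Of the members, 20 overlap a gene on the opposite strand and 0 one on the same strand. Reads shared with near-identical copies, as for PABPC1 or YWHAZ, could have been lost or split in counting.

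Cells were split per library, a step added after the data had been examined, at the lowest point of a kernel density of log2 share (scipy 1.17.1). Thinning to 15000 UMIs left out 366 of 5985 cells, and correlations used ln(1 + 10000 × share). Python 3.11.15, numpy 2.4.6, pandas 2.3.3 and matplotlib 3.10.9 were used, and edgeR 4.0.16 and DESeq2 1.42.0 in R 4.3.3 gave scaling factors only. The scripts were checked on simulated counts. Named genes were the 12 members with the highest vehicle CPM, the 8 largest and 8 smallest ratios between libraries, MYC, and genes among the 5 highest or 5 lowest in a cluster contrast, with others named as examples of their role. The members, gene lists and role groups were chosen with earlier results of these data known.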

Additional observations from a re-analysis of the deposited data

How the results depend on the processing

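The median of the members in 8q-high over 8q-low cells kept its direction and stayed within 0.49 to 0.53 in the cytokine library and 0.53 to 0.57 in the vehicle library under 8 alternatives chosen after seeing the data (scaling, filters, G1 cells only, under 10% mitochondrial UMIs only, a split with ribosomal protein genes, cells near the split left out). At 1.5-fold, 14 members in the cytokine library and 18 in the vehicle library were called higher in place of 48 and 48, where 2.42% and 2% of all measured genes were.

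Between the libraries the members' median of -0.12 became 0.060 with TMM and 0.076 with DESeq2 size factors.

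Cluster medians moved as follows. Within 8q-high cells, cytokine clusters 0, 1, 3, 4 and 5 had 0.082, -0.11, -0.066, -0.12 and 0.085, and vehicle clusters 0 and 4 had 0.047 and -0.048. Within 8q-low cells, cytokine clusters 0 and 1 had 0.013 and -0.17, cytokine cluster 3 had 0.083, and vehicle clusters 1 and 3 had -0.071 and -0.0064. Among these, cluster 4 of both libraries and cytokine cluster 3 changed sign, and so did cytokine cluster 2 within 8q-high cells. Clusters 3 and 4 were also taken without ribosomal protein and mitochondrial genes in the totals. They then had -0.31 and 0.24 in the cytokine library and -0.32 and 0.29 in the vehicle library. Over all measured 8q genes, with full totals, they had -0.30 and 0.25 in the cytokine library and -0.33 and 0.28 in the vehicle library. Cytokine cluster 5 had 0.048 with DESeq2 size factors. The cause was not tested. The other 92 of 113 cluster values stayed within the interval of the main median. At 1.1-fold and 1.5-fold, cluster 0 had 42 and 4 members called higher in the cytokine library (15.7% and 1.24% of all measured genes) and 32 and 11 in the vehicle library (14.6% and 1.29%). Cluster 1 had 38 and 16 called lower in the cytokine library (32.6% and 5.74%) and 42 and 11 in the vehicle library (20.7% and 2.24%).

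The variance of the members' sum over the binomial variance was 2.48 in the cytokine library and 2.64 in the vehicle library at 7500 UMIs per cell. Over all measured 8q genes, ribosomal protein genes included, the ratio was 17.8 and 21.1. Without the 4 ribosomal protein genes of the arm it was 8.89 and 10.3. The cause was not tested. All 8 alternatives for the mean correlation stayed within 1.5 times.

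No paired analysis was possible because each condition had 1 library. Counts limit the members near 5 CPM, such as CHD7 and OTUD6B, most.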

Other observations

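Genes off 8q that differed at least 2-fold between 8q-high and 8q-low cells were few and partly shared by both libraries. Of 8159 such genes measured in both, 23 were higher in 8q-high cells of the cytokine library and 21 in the vehicle library, of which 17 were the same genes (73.9% of the first list and 81.0% of the second). They included DOCK2, a guanine exchange factor best known from blood cells (15.8 CPM in 8q-high and 1.86 CPM in 8q-low cells of the cytokine library, 5.62 and 1.23 CPM in the vehicle library), NR3C1, the glucocorticoid receptor (39.3 and 10.4 CPM, 46.6 and 15.3 CPM), and ASS1, an enzyme of arginine synthesis (216.0 and 91.5 CPM, 13.7 and 1.48 CPM). In the other direction 30 genes were lower in the cytokine library and 38 in the vehicle library, with 17 in common (56.7% and 44.7%). Among these were TFF1, a secreted trefoil peptide of luminal cells (517.1 CPM in 8q-high and 1601 CPM in 8q-low cells of the cytokine library, 30.9 and 86.1 CPM in the vehicle library), S100A6 (312.3 and 643.7 CPM, 94.8 and 284.1 CPM) and C1orf21 (4.31 and 48.4 CPM, 8.98 and 80.1 CPM). These genes were chosen after their values were seen.

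Some genes with high counts in the cytokine library differed between the cell groups. In the cytokine library S100A8 had 4647 CPM in 8q-high and 2104 CPM in 8q-low cells, S100A9 had 6094 and 3218 CPM, and TDO2, an enzyme that degrades tryptophan, 662.7 and 453.9 CPM (log2 ratio 0.55, 0.52 to 0.58). KMO and KYNU, further enzymes of that route, differed less, with log2 ratios of 0.24 (0.20 to 0.28) and 0.05 (-0.03 to 0.14). CCL2, a chemokine, was lower in 8q-high cells, with 89.6 CPM against 137.5 CPM in 8q-low cells, and NFKBIA, an inhibitor of NF-κB, had 1057 and 1081 CPM. In the vehicle library TDO2 had 8.68 CPM in 8q-high and 9.83 CPM in 8q-low cells (-0.18, -0.43 to 0.07). There KMO had 9.87 and 8.85 CPM, KYNU 2.91 and 5.07 CPM and S100A9 6.11 and 6.87 CPM, while S100A8 and CCL2 lay under 5 CPM in both groups. The difference of these ratios between the libraries was not tested.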
